A study of Mus musculus with 2 samples.

Results

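The hedgehog ligands Shh, Ihh and Dhh and the ligand release genes Hhat, Disp1 and Scube2 were examined in newborn mouse ovaries. They were chosen by name, as every probe set of the array whose single gene symbol in the platform annotation is 1 of these 6. The rule found 10 probe sets among 45101, and the 6 genes stand among 18193 genes with a singly named probe set. The mutant group was Amhr2(cre/+)-SmoM2, with Cre at 1 copy of Amhr2, and the control group was Amhr2(+/+)-SmoM2, with no Cre. Both groups carry SmoM2, an active form of the membrane protein Smoothened that passes on the hedgehog signal. In the mutant, Cre made from the Amhr2 locus, the gene of the anti-Müllerian hormone receptor, is known to act in somatic cells of the gonad. Active SmoM2, the Cre enzyme and the altered Amhr2 copy come together in the mutant and cannot be told apart. Each group is 1 array, hybridised with the pooled ovary RNA of 8 mice that were 2 days old, so replicate error could not be had, no p-value is given, and every value below describes these 2 pools.

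Hedgehog ligands are secreted proteins that carry lipids at both ends. Hhat, an acyltransferase of the secretory pathway, adds the fatty acid at the amino end, and cholesterol is joined to the other end as the precursor cuts itself. Disp1, a membrane transporter, moves the lipid-bearing ligand out of the producing cell, and Scube2, a secreted protein, takes it up from there. In receiving cells the ligand binds Ptch1 and so frees Smoothened, whereas SmoM2 signals without ligand. In the mouse ovary Ihh and Dhh are known as products of the granulosa cells of growing follicles, and the surrounding stroma and theca respond to them. Shh is best known from epithelia, the notochord and limb buds.

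The values are linear signal intensities, 1 per probe set. Probe sets were taken as measured if their brighter value was at least 80.7, the median over both arrays. The log2 ratio is that of mutant to control once 22.2 (the 25th percentile of the values) has been added to each signal, which shrinks the raw ratio of dim probe sets. Where 1 value lies under the signal minimum, the log2 ratio rests on a reading too dim to measure and can exceed the fold bound given beside it. Of the 10 member probe sets 8 were measured, at least 1 for each of the 6 genes. All 10 signals of each pool are shown in the plot of member signals.

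**Figure D1:**
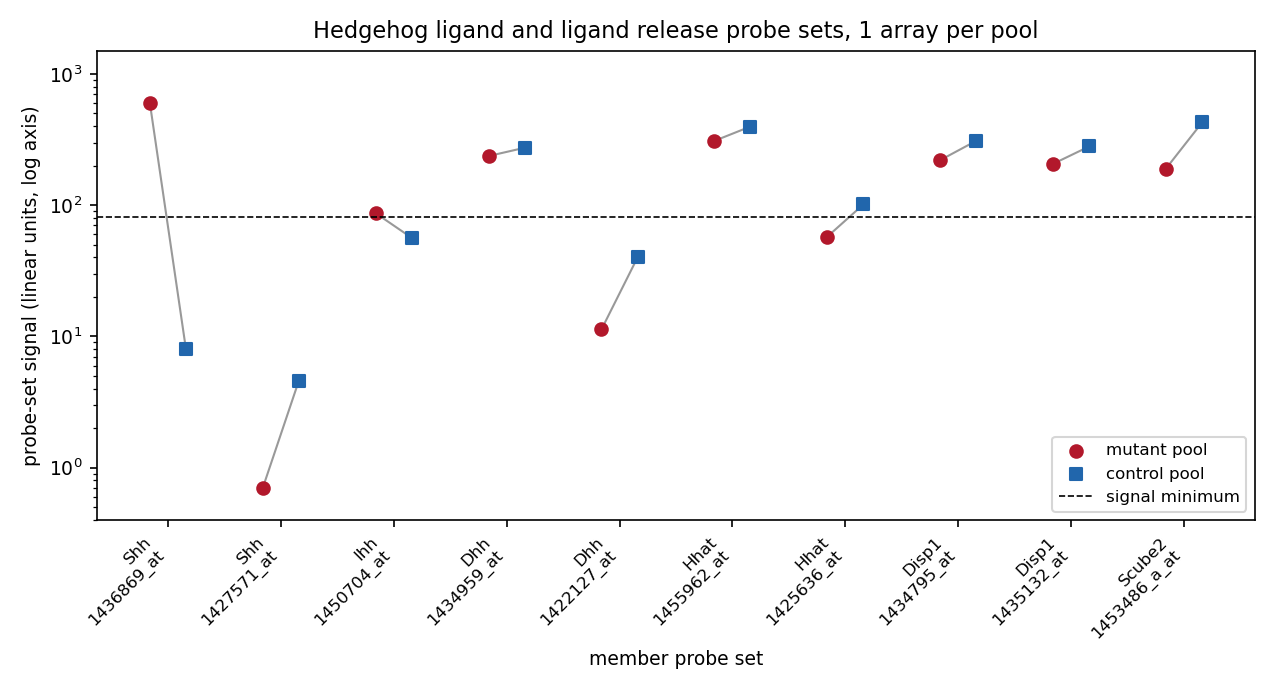
Signal of each member probe set in the mutant pool (red circle) and the control pool (blue square), on a log axis in linear signal units, with a line joining the pools and a dashed line at the signal minimum of 80.7. Shh probe set 1436869_at reads 601.8 in the mutant pool and 8.0 in the control pool, all 5 probe sets of Hhat, Disp1 and Scube2 are lower in the mutant pool, and the levels of different probe sets are not comparable.

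The array measured 12308 genes, and each stands here by its brightest measured probe set on average. The trimmed mean signal was 500.003 on each array, a match that points to scaling before deposit, and 49.8% of mutant and 50.3% of control values reached the signal minimum. The ratio of 3' to 5' signal of beta-actin, a sign of RNA integrity and labelling, was 10.5 on the mutant and 8.48 on the control array, and that of Gapdh was 4.98 on the mutant and 3.28 on the control array. Of the 18 probe sets of spiked hybridisation controls, 17 were brighter on the mutant array, with a median log2 ratio of 0.23. The oocyte marker Gdf9 read 2018 in mutant ovaries and 2605 in control ovaries, and the pregranulosa marker Foxl2 read 4182 in mutant ovaries and 8097 in control ovaries, so both defining cell types of the newborn ovary were present. Amhr2 itself read 3486 in mutant ovaries and 8591 in control ovaries. In pooled tissue, fewer cells of a type and less RNA per cell cannot be told apart.

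Among the ligands, Shh was far higher in the mutant pool, on 1 of its 2 probe sets. Probe set 1436869_at of Shh read 601.8 in the mutant pool and 8.0 in the control pool. The control signal lies under the signal minimum, so the difference is at least 7.46-fold, and the log2 ratio was 4.37. The other probe set, 1427571_at, read 0.7 in mutant ovaries and 4.6 in control ovaries. It was not measured in either pool and does not repeat the difference.

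A second probe set under the signal minimum, as Shh has, also occurred in other genes. Of the 230 genes at least 2-fold higher that have several probe sets, 95 (41.3%) had no other measured probe set, against 32.5% of the 7586 measured genes with several probe sets. Among the 84 such genes at least 2-fold lower it was 53 (63.1%). Genes past 2-fold thus rested on a lone measured probe set more often than all genes did, as Shh does. Hhip, a secreted-ligand trap that hedgehog signalling switches on, was high in the mutant pool on all 4 of its probe sets, and its brightest one read 3215.5 in mutant ovaries and 1.1 in control ovaries.

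Ihh, the ligand of cartilage, gut and granulosa cells, lay at the edge of what the array measured. Its only probe set, 1450704_at, read 86.9 in the mutant pool and 56.3 in the control pool. The control value is under the signal minimum and the mutant value just over it, so the bound is at least 1.08-fold higher, with a log2 ratio of 0.47. That ratio is no larger than the spread between probe sets of the same gene, whose SD was 0.478 for probe sets of similar signal.

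Dhh, the ligand known from Sertoli, Schwann and granulosa cells, was measured in both pools and differed little. Probe set 1434959_at of Dhh read 236.6 in mutant ovaries and 273.6 in control ovaries, 1.16-fold lower, with a log2 ratio of -0.19. The second probe set of Dhh, 1422127_at, read 11.3 in mutant ovaries and 40.0 in control ovaries, both under the signal minimum. Both probe sets were lower in the mutant pool, and only the first was bright enough to measure. The log2 ratio of the first is smaller than the spread between probe sets of the same gene, whose SD was 0.382 for probe sets of similar signal.

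The release genes were lower in the mutant pool, on all 5 of their probe sets. Each of these probe sets was measured. Over all measured named probe sets, 54.3% had a log2 ratio under 0, and over all measured genes 52.5% did. For Hhat and Disp1 the differences were small, and for Scube2 the difference passed 2-fold. The SD between probe sets of the same gene was 0.382 at similar signal. On its brightest probe set the log2 ratio of Hhat was smaller in size than this SD, and that of Disp1 just over it.

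Hhat read 308.7 in mutant ovaries and 397.2 in control ovaries on probe set 1455962_at, 1.29-fold lower, with a log2 ratio of -0.34. On 1425636_at Hhat read 57.5 in mutant ovaries and 101.3 in control ovaries, at least 1.26-fold lower, with a log2 ratio of -0.63. Both probe sets were lower in the mutant pool. The mutant value of the dimmer one lies under the signal minimum, so the sizes of their decreases cannot be ranked.

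Disp1 gave nearly the same result on both of its probe sets. On 1434795_at it read 220.1 in mutant ovaries and 309.3 in control ovaries, 1.41-fold lower, with a log2 ratio of -0.45. On 1435132_at it read 206.3 in mutant ovaries and 280.1 in control ovaries, 1.36-fold lower, with a log2 ratio of -0.40. Of all measured genes 13.1% had a lower log2 ratio than Disp1.

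Scube2 had the largest decrease of the 8 measured member probe sets. Its only probe set, 1453486_a_at, read 190.0 in mutant ovaries and 426.6 in control ovaries, 2.25-fold lower, with a log2 ratio of -1.08. Both values were over the signal minimum. With the pseudocount raised to the median signal its log2 ratio was -0.91, short of 2-fold. By log2 ratio Scube2 ranked 126 from the bottom of the 12308 measured genes. The suffix of this probe set marks a design that can detect several transcripts of 1 gene, and no other Scube2 probe set was there to compare.

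Of the 6 member genes, 1 (Shh) was at least 2-fold higher and 1 (Scube2) at least 2-fold lower by log2 ratio. Across the 12308 measured genes the share past 2-fold was 3.21% upward and 1.4% downward. The median log2 ratio of the 6 members was -0.27, and that of all measured genes was -0.02. With 4 members under 0 and 2 over 0, the ligands and the release genes did not move as a block. The scatter of all measured genes places each member by its mean signal and its log2 ratio.

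**Figure D2:**
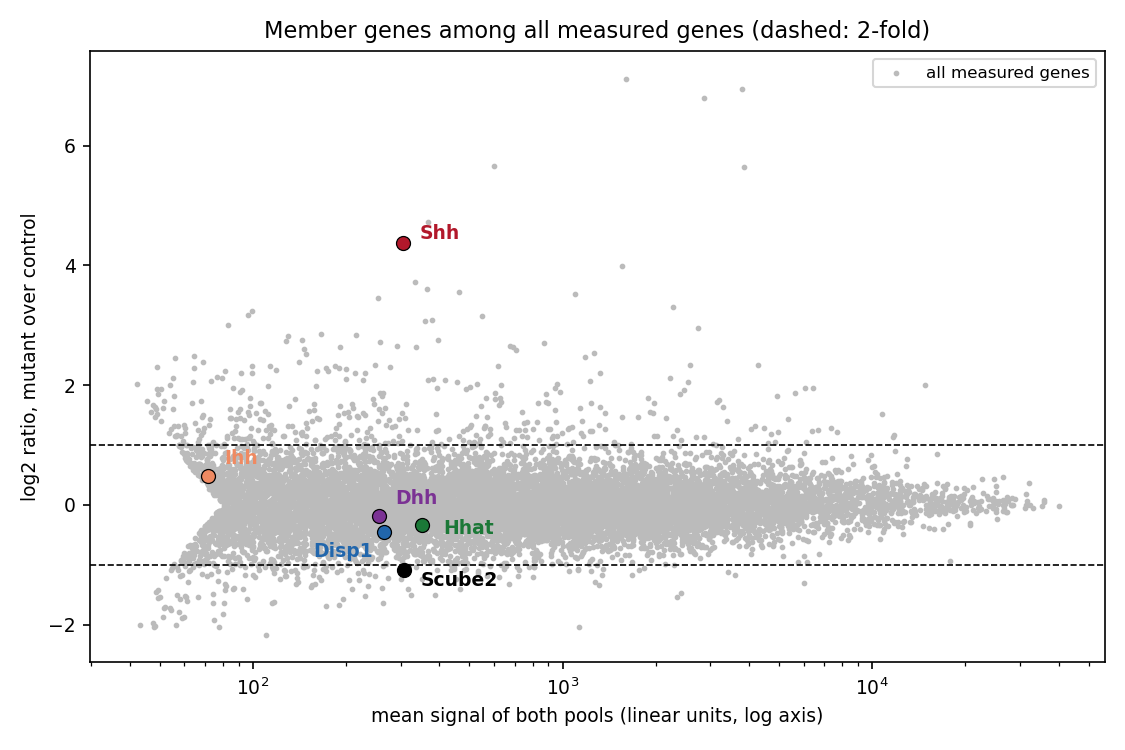
Log2 ratio of mutant to control against the mean signal of both pools (log axis) for all 12308 measured genes (grey) and the 6 member genes (coloured), with dashed lines at 2-fold. Shh stands far above the 2-fold line at 4.37, Scube2 lies just under the lower line at -1.08, and the other 4 members lie between the lines.

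The promoter windows of the release genes are shown because these genes were lower on every probe set. The sequences are from RefSeq, build GRCm38.p6, and run from 250 bases before to 50 bases after a gene start. Of the 6 member genes 5 matched an entry, with 6 windows in all, and Shh did not. Capitals mark the GC box GGGCGG or its other strand CCGCCC, where overlapping matches merge. The strand of each window is minus.
Hhat, chr1:192771170-192771469: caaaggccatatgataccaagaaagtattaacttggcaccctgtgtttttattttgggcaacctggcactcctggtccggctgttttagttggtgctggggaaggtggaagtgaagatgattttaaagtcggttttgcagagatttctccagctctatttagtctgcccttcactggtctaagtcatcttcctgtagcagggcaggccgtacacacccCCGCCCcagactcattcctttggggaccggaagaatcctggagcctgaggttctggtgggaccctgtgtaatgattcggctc
Disp1, chr1:183221480-183221779: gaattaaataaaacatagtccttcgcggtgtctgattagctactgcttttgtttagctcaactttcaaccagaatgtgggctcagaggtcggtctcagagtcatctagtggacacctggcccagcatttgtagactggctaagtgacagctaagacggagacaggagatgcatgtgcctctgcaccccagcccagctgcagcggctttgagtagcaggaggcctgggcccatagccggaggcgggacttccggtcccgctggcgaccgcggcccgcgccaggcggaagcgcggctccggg
Scube2, chr7:109865630-109865929: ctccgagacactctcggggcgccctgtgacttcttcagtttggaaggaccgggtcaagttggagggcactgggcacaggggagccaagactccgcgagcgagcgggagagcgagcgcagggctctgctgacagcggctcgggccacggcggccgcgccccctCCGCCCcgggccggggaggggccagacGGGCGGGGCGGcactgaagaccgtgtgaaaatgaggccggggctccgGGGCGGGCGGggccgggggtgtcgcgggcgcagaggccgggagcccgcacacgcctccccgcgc

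The Scube2 window held 5 GC boxes, that of Hhat 1, both windows of Disp1 0, that of Dhh 4 and that of Ihh 2. Windows with a GC box made up 35.7% of all 32851 promoter windows. The GC content was 75.3% for Scube2, 72.7% for Ihh, 61.7% for Dhh, 58.7% for the Disp1 window shown, 50.3% for Hhat, and had a median of 52.7% over all windows. The binding site of the GLI factors, GACCACCCA or its other strand TGGGTGGTC, was found in 0 of the 6 member windows and in 0.253% of all windows. The shorter core ACCACCC or GGGTGGT was found in 0 of the 6 as well, and in 4.61% of all windows. These letters are thus not in these windows, and nothing follows from that about the factor.

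Relatives of the release genes and other genes that act on the ligand or its surroundings were listed to set beside the release genes. Of 15 listed relatives, 14 had a named probe set and 8 were measured. By 1.5-fold or more, 2 of the 8 were higher in mutant ovaries and 0 lower, against 9.32% and 7.9% of all measured genes, and their median log2 ratio was 0.06. Both that were higher are glypicans, proteoglycans of the cell surface. Gpc6 read 1121.6 in mutant ovaries and 417.4 in control ovaries, 2.69-fold higher, and its other 3 measured probe sets were higher too, with log2 ratios of 1.29, 0.66 and 0.63. Gpc3, which in the mouse is known to compete with Ptch1 for ligand, read 3294.8 in mutant ovaries and 1539.9 in control ovaries, 2.14-fold higher on its only probe set. Gpc4 read 7260.5 in mutant ovaries and 7999.6 in control ovaries, a log2 ratio of -0.14.

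Scube3, a paralogue of Scube2, read 275.3 in mutant ovaries and 364.4 in control ovaries, with a log2 ratio of -0.38. Scube1 was under the signal minimum in both pools, at 6.8 in mutant ovaries and 38.7 in control ovaries. All named probe sets of the 3 Scube genes were thus lower in the mutant pool, but only that of Scube2 passed 1.5-fold with a measured signal. The Disp1 relatives Disp2 and Disp3 and the Hhat relative Hhatl were too dim in both pools. Ext1 and Ext2, which build heparan sulfate chains, had log2 ratios of -0.25 and 0.42. The sheddases Adam10 and Adam17 had log2 ratios of 0.23 and -0.12 on their brightest probe sets, and -0.77 and -0.52 on their second measured ones.

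Among the genes that receive and pass on the signal, more were higher than lower in mutant ovaries. Of 14 listed receivers and mediators 13 were measured. By 1.5-fold or more 6 of them were higher and 0 lower in mutant ovaries, against 9.32% and 7.9% of all measured genes. The median log2 ratio of these 13 was 0.28. Of 12 listed target genes 9 were measured, and by the same measure 6 were higher and 0 lower, with a median of 0.81. These lists share Ptch1, Gli1 and Hhip and were written with earlier results of these arrays known, so their direction is no independent evidence. Ptch1, receptor and target, read 15949 in mutant ovaries and 5574 in control ovaries, with a log2 ratio of 1.51. Gli1, the transcription factor used as a readout of the pathway, read 264.0 in mutant ovaries and 103.2 in control ovaries. Cdon, a co-receptor that binds the ligand, read 4181 in mutant ovaries and 2079 in control ovaries. The strip plot of log2 ratios shows these lists with the members.

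**Figure D3:**
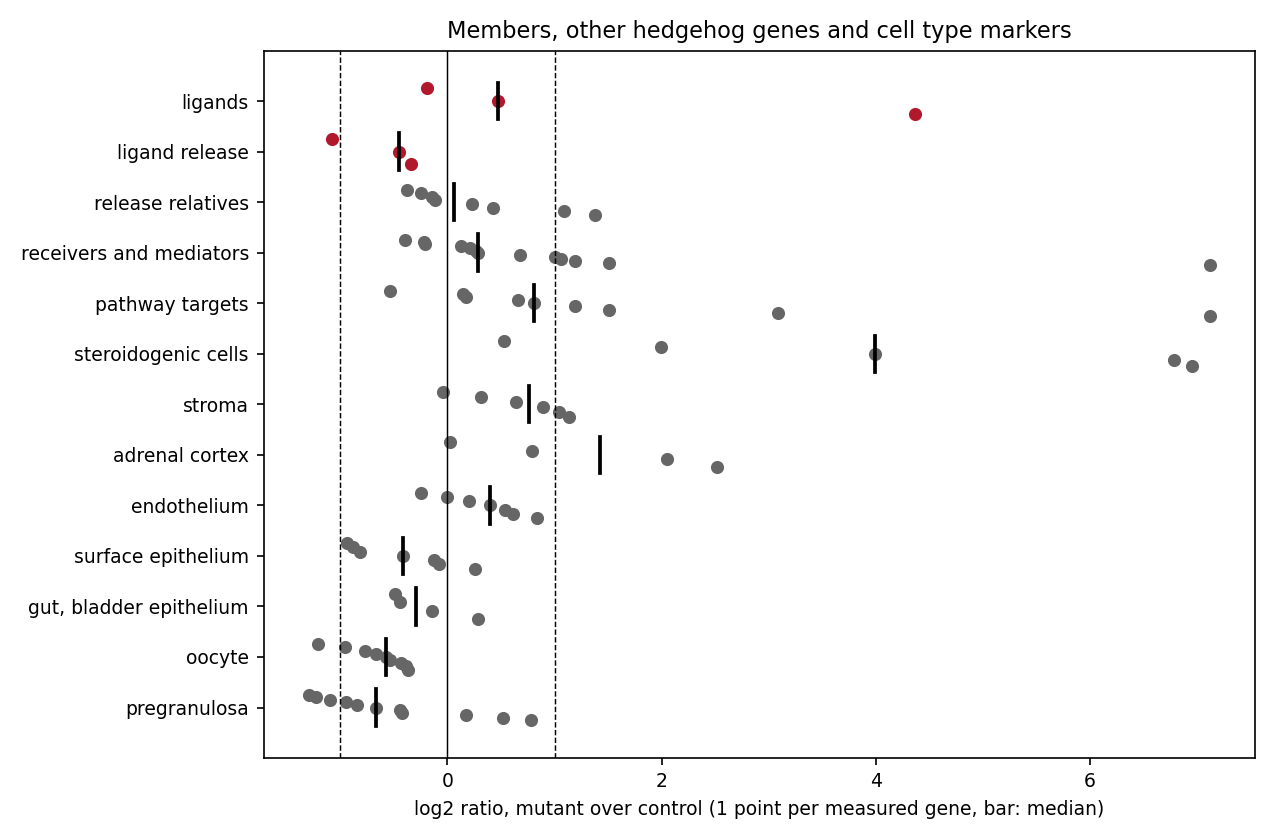
Log2 ratio of mutant to control for each measured gene (points) of the member groups (red), other hedgehog lists and cell type marker lists (grey), with black bars at list medians and dashed lines at 2-fold. The release genes all lie left of 0, as do all 9 oocyte genes, while receivers, targets, stromal and steroidogenic genes lie mostly to the right.

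Markers of pregranulosa cells and of oocytes also differed between the pools. Of 11 measured pregranulosa markers, 6 were at least 1.5-fold lower in mutant ovaries and 1 higher, against 7.9% and 9.32% of all measured genes. The median log2 ratio of the 11 was -0.67, with 8 under 0 and 3 over 0. Kitl, the brightest of the 11, read 14627 in mutant ovaries and 12948 in control ovaries, a log2 ratio of 0.18. The other measured probe sets of Kitl had log2 ratios of -0.20 and -0.24. Amhr2, a copy of which the mutant genotype alters, is 1 of the 6, and without it 5 of 10 were lower and the median was -0.56. Over all 11 the summed signal was 30115 in mutant ovaries and 40152 in control ovaries. All 9 measured oocyte genes had log2 ratios under 0, against 52.5% of all measured genes, and 4 of the 9 were at least 1.5-fold lower. The oocyte genes had a median of -0.58 and summed signals of 24217 in mutant ovaries and 37193 in control ovaries. The log2 ratios of Hhat (-0.34), Disp1 (-0.45) and Dhh (-0.19) were smaller in size than these medians, and that of Scube2 (-1.08) was larger. The part of these cells in the lower signals of Dhh, Hhat, Disp1 and Scube2 was not tested.

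Most stromal markers and all measured steroidogenic ones were higher in the mutant pool. Of 6 measured stromal markers 4 were higher by 1.5-fold or more and 0 lower, against 9.32% and 7.9% of all measured genes. The summed signals of the 6 were 64437 in mutant ovaries and 45216 in control ovaries. All 5 measured steroidogenic genes were higher, 4 of them at least 2-fold, against 3.21% of all measured genes at least 2-fold higher. The summed signals of the 5 were 40676 in mutant ovaries and 6674 in control ovaries. Of 7 measured endothelial markers, 2 were higher by 1.5-fold or more by log2 ratio and 0 lower. Of these Sox18 was 1.85-fold higher, while for Pecam1, dim in control ovaries, the bound is at least 1.45-fold.

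Beside the high Shh signal, markers of tissues known to make Shh were read as well. The adrenal cortex is such a tissue, and 4 of its 6 listed markers were measured. By log2 ratio 3 were higher by 1.5-fold or more and 0 lower, against 9.32% and 7.9% of all measured genes. For Cyp21a1, a steroid hydroxylase and 1 of these 3, the bound is only at least 1.44-fold. Cyp11b1, the enzyme of the last step of glucocorticoid synthesis, read 269.1 in mutant ovaries and 28.8 in control ovaries. Nr0b1, a nuclear receptor of adrenal and gonad, read 423.8 in mutant ovaries and 415.5 in control ovaries. Their summed signal was 966.6 in mutant ovaries and 537.3 in control ovaries, and their part in the Shh signal was not tested. Of the 7 gut and bladder epithelium markers 4 were measured, and 0 were at least 1.5-fold higher or lower. Vil1, which encodes the microvillus protein villin, read 386.6 in mutant ovaries and 534.7 in control ovaries. Cdx2 and Foxa1, transcription factors that define such epithelia, lay below the signal minimum in both pools, as did Foxa2, with 53.8 in mutant ovaries and 6.5 in control ovaries. The 7 surface epithelium markers were all measured, with 3 at least 1.5-fold lower and 0 higher by as much, and summed signals of 5438 in mutant ovaries and 8482 in control ovaries.

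For Dhh, Schwann cells are another known source, and that list was sparse. Of its 6 markers 3 were measured, and the defining factor Sox10 was under the signal minimum on all of its probe sets in both pools. Erbb3, a neuregulin receptor, read 145.7 in mutant ovaries and 272.8 in control ovaries, and S100b read 161.8 in mutant ovaries and 68.9 in control ovaries. Summed over the 3 measured markers the signal was 482.0 in mutant ovaries and 510.9 in control ovaries.

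The genes with the most similar value pair were found by the distance between log2 signals in both pools, over 2 arrays only. Nearest to Shh was Oxtr, the oxytocin receptor, with 731.9 in mutant ovaries and 6.2 in control ovaries (distance 0.287). Next was 1110064A23Rik (0.682). The control signals of Shh and of both these genes lie under the signal minimum, so these distances rest on readings too dim to measure. Nearest to Scube2 were Wfdc15a (distance 0.0204) and Rbm44 (0.026). Gp5 and Tafa2 were nearest to Ihh, Vps45 and Ptges3l to Dhh, Tm9sf4 and Cic to Hhat, and Ptpro and Ggt5 to Disp1, all within a distance of 0.0227. The control signals of Ihh, Gp5 and Tafa2 also lie under the signal minimum, so the same limit holds for them. These pairs are likenesses of readings, not of RNA levels.

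Across processing settings the direction of each member gene was kept wherever the gene was measured, as the plot of settings shows. Most settings could not have reversed it. Another pseudocount, or raising dim values to the minimum, keeps the sign, and a gene with 1 measured probe set has no other to choose. Only centring, quantile normalization and hybridisation control scaling could turn any member, and for Hhat and Disp1 also the choice of probe set. The Shh log2 ratio lay between 2.90 and 5.49 and changed mainly with how values under the signal minimum were treated. Scube2 lay between -1.28 and -0.91. Disp1 lay between -0.66 and -0.37, Hhat between -0.63 and -0.30, Dhh between -0.40 and -0.15 and Ihh between 0.11 and 0.58. Scaling the mutant array to the hybridisation controls moved the median log2 ratio of all genes to -0.25, and with it 260 genes passed 2-fold upward and 410 downward, against 395 and 172 as reported. On that scale Dhh had a log2 ratio of -0.40, Hhat -0.56, Disp1 -0.66, Scube2 -1.28 and Shh 4.15. Shh and Ihh were not measured where each pool had to reach the signal minimum.

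**Figure D4:**
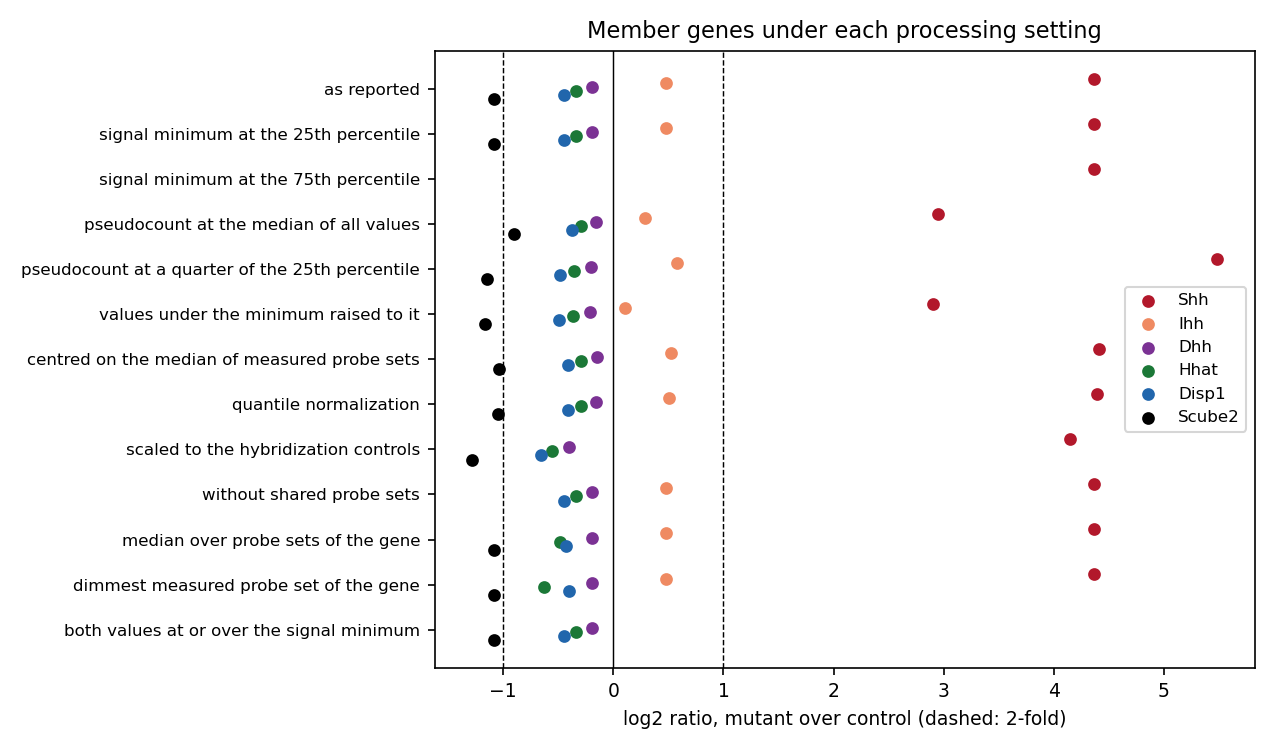
Log2 ratio of mutant to control of each member gene (colours) in the reported setting (top row) and under each of 12 alternatives (rows below), with dashed lines at 2-fold. Shh stays right of the upper 2-fold line wherever it is measured, Scube2 stays near the lower line, and a gene has no point where it was not measured.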

How the data were processed

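Total RNA from single animals was pooled in equal amounts from 8 mice per group and hybridised as biotin-labelled cRNA to Affymetrix arrays, per the labels' protocols. The deposited values are linear probe-set signal intensities, and GCOS is named in the submitters' processing notes. No version or setting of it is given in the sources used here. Detection calls were not part of the table. The intensities deposited by the authors run from 0.1 to 50465. The trimmed means (2% left out at each end) are equal, as scaling each array to a set target would leave them, so they are no check of the scale. The values were used with no further correction.

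Of 45101 probe sets, 34945 array probe sets had 1 gene symbol, 932 had several and 9211 were not listed. Probe sets with several symbols or none stayed unnamed. By Entrez gene ID 34741 matched a RefSeq gene table (GRCm38.p6), and 0 symbols differed.

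Ratios, counts and figures were made with Python 3.11.15, pandas 2.3.3 and matplotlib 3.10.9. The calls were tested on simulated data only with large changes planted in probe sets brighter than those of the members. That is no check of smaller or dimmer differences. Where 1 value lay under the signal minimum, the fold is a bound, the brighter value over 80.7. The spread between probe sets of 1 gene (SD 0.385 over 13386 probe sets of 5118 genes) served as a scale and is not replicate error. The number of arrays limits the precision. The text names all member probe sets, measured genes of the hedgehog lists, the 2 nearest genes of each member and a few bright or defining genes of each cell type list. Gdf9, Cdx2, Foxa1, Foxa2, Sox10, Sox18, Pecam1 and Cyp21a1 were named after their values were seen. The kidney list had 1 measured gene of 6 and the oviduct list 4 of 7, with medians of -0.17 and -0.21. The members and lists were chosen with earlier results of these data known. In total 12 alternative settings were tried.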

Additional observations from a re-analysis of the deposited data

How the results depend on the processing

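Of 147 values recomputed under 12 alternatives, 133 kept their direction and moved by less than the probe-set spread (0.385 on the log2 scale) or, for counts, by at most 1.5 times. Among the 133 are values that a setting could not alter. The Shh log2 ratio, for example, stayed at 4.37 with a lower minimum and with another choice of probe set. The 133 is thus no measure of stability. The Shh log2 ratio was 2.94 with the larger pseudocount (the median signal), 5.49 with the smaller one (0.25 of the one reported) and 2.90 with values under the minimum raised to it. Requiring both values to reach the minimum left 0 member genes at least 2-fold higher. The count at least 2-fold lower was 0 with the minimum at the 75th percentile, with the larger pseudocount and without shared probe sets. In these settings Scube2 was not measured, read -0.91 or lost its only probe set. The last setting drops every probe set with an _s, _x or _a suffix, and the _a of Scube2 marks several transcripts of 1 gene. With the minimum at the 75th percentile only Shh was measured, so the members' median was 4.37. With the minimum at the 25th percentile 4 release relatives were at least 1.5-fold higher and 2 lower, and 1 was lower with hybridisation control scaling or with the dimmest probe set. Receivers and targets at least 1.5-fold lower numbered 1 after quantile normalization and 2 after hybridisation control scaling. Over all genes the counts at 2-fold were 682 and 443 with the lower minimum, 182 and 48 with the higher one, 222 and 84 with both values required, 247 and 48 with the larger pseudocount, 487 and 264 with the smaller one, and 391 and 332 with the dimmest probe set. With hybridisation control scaling Ihh was not measured. Leaving Amhr2 out of the pregranulosa list, chosen after seeing the data, left 5 lower and 1 higher. No paired analysis was possible because each group holds 1 array. No replicate could be left out for the same reason. Signal over background limits Ihh, whose mutant value is just over the minimum, and the dim probe sets of Shh and Dhh.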
